A study of Mus musculus with 4 samples.

Results

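The genes described here are those whose response to low oxygen differed between wild-type and tri-CH1 mouse embryonic fibroblasts. For each gene the log2 change with hypoxia in tri-CH1 cells minus that in wild-type cells, called the response difference, had to be 1 or more in size, which is a 2-fold difference between the folds. A probe set, the group of short probes that reads a transcript on an Affymetrix array, was measured if it named a single gene and reached a signal of 500 on at least 1 of the 4 arrays. Signals under 200 were first raised to that floor. A gene was kept if a measured probe set reached the limit and at least 2 of the gene's measured probe sets shared its sign, or if the gene had only 1 measured probe set. Of 4656 measured genes, 198 met the rule. In 87 genes the difference was -1 or lower (1.87% of the measured genes) and in 111 it was 1 or higher (2.38%). A further 29 genes had a probe set past the limit but no second measured probe set of the same sign, and were left out.

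Primary fibroblasts were grown from wild-type embryos, or from tri-CH1 embryos, in which the CH1 domain was deleted from 2 alleles of p300 and 1 allele of CBP (both at stage e14.5). Cultures of each genotype spent 6 h either in normoxia, 21% oxygen, or in hypoxia, 0.1% oxygen. Both were held at 37 °C and 5% CO2, in fresh medium that had stood overnight at the same oxygen level. Each of these 4 groups was 1 array, so no value has a replicate error, nothing was tested, and the number of arrays limits the precision. The sources used here do not give the strain or say whether embryos were pooled. The remaining CBP allele of tri-CH1 cells keeps its CH1 domain, and all other domains of both proteins remain, so the genotype is a partial loss.

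CBP and p300 are acetyltransferases that many transcription factors recruit to activate genes. Their CH1 domain, a zinc-binding module also called TAZ1, holds the C-terminal activation domain of HIF-1α and HIF-2α, and other partners such as CITED2. When oxygen is plentiful, FIH hydroxylates an asparagine in that HIF domain and blocks its contact with CH1, while prolyl hydroxylases mark HIF-α for destruction. In hypoxia both brakes lift, HIF-α joins ARNT at hypoxia response elements and recruits coactivators. Fibroblasts then express glucose transporters, glycolytic enzymes, angiogenic factors and feedback regulators of HIF.

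In the text, rose and fell mean a change with hypoxia of 2-fold or more on signals floored at 200. A negative response difference means a smaller rise or a larger fall in tri-CH1, and a positive one the reverse. The differences chose the genes, so their sizes are given as a description and support nothing by themselves. The spread between probe sets is the only internal error. Over 1059 genes with 2 measured probe sets, the SD of a response difference was 0.39 log2 units. That SD covers error between probe sets and not between cultures. Over all measured probe sets the SD of the response difference was 0.44, little more than the error between probe sets. The fibroblast markers fixed for these cells had summed signals from 125288 to 149184, and all 11 of 11 reached 500 on at least 1 array. Some were dim, such as Pdgfra at 437 and 309 in wild-type cells, and 494 and 523 in tri-CH1. Of 8 endothelial markers none reached 500, and summed signals ran from 766 to 824. Macrophage and blood markers summed to between 2138 and 2626, with 2 of 8 at 500 or more, and neural markers to between 1565 and 1934, with 1 of 8. The cultures differed by genotype in sex-linked genes. Xist, expressed from the inactive X chromosome, stood at 3096 and 3523 in wild-type cells, and at 318 and 263 in tri-CH1. The Y-linked Eif2s3y stood at 4.3 and 22.8 in wild-type cells, and at 242 and 363 in tri-CH1. Of the 198 genes, 3 lie on the X chromosome, 1.52% against 3.20% of the measured genes, which says nothing of genes on other chromosomes. Sex-linked signals and genotype varied together here, so their parts in the response differences cannot be told apart and were not tested.

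**Figure D1:**
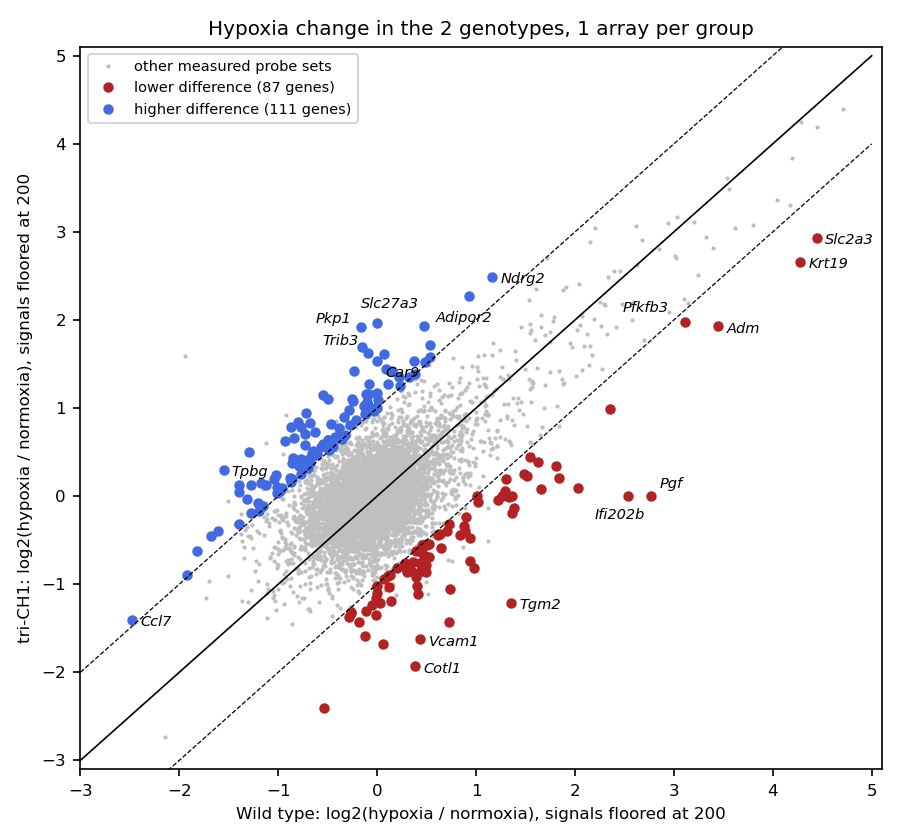
Each point is a measured probe set, with the log2 change with hypoxia in wild type on the horizontal axis and in tri-CH1 on the vertical axis, 1 array per group and signals floored at 200. Red points are the 87 genes with a difference of -1 or lower and blue points the 111 with 1 or higher; grey points are all other measured probe sets, the solid line marks equal changes and the dashed lines a difference of 1.

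The differences were mostly not losses or gains of a strong hypoxic response. Of the 87 genes with a negative difference, 27 rose in wild-type cells, and 60 changed by less than 2-fold there. In tri-CH1, 4 of these 27 also rose, 22 changed by less than 2-fold and 1, Tgm2, fell. Another 22 fell in tri-CH1 alone, and 38 passed 2-fold in neither genotype, with smaller changes of opposite sign that added up to the limit. Among the 111 genes with a positive difference, 35 rose in tri-CH1 alone, 21 fell in wild type alone, 1 rose in both, 1 fell in both and 53 passed 2-fold in neither. Over all 6811 measured probe sets, 2.98% rose and 1.28% fell in wild type, and 3.22% rose and 1.16% fell in tri-CH1. The rule used these changes, so nothing is read from the shares.

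The same number can be seen as a gap between genotypes that opened or closed with oxygen. In 63 of the 198 genes, tri-CH1 and wild type differed by 2-fold or more in hypoxia only. In 48 they did so in normoxia only, so that the genotypes came closer in hypoxia. In 4 the gap was on the same side at both oxygen levels, and in 83 it stayed under 2-fold at each. Over all measured probe sets the genotypes differed by 2-fold or more in 6.87% in normoxia and in 7.06% in hypoxia. Tri-CH1 in hypoxia was the array farthest from the other 3 in 62 genes, or 31.3%, against 24.5% of all measured probe sets. Wild type in normoxia, the array with a different lot number from the others, was farthest in 42 genes, or 21.2%, against 22.4%.

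The members were dimmer than the measured probe sets in general, which bears on how far a single value can be trusted. The highest of the 4 signals had a median of 779, against 1050 for all measured probe sets, and reached 1000 in 64 genes (32.3% against 52.4%). No signal was under 200 in 158 genes. In 21 a signal under 200 sat where raising it can only shrink the difference, so the value is a bound. In 19 the floor could also enlarge it, and without the floor 10 of the 198 fell under the limit or turned sign. A measured probe set stood alone in 123 genes, of which 75 have no other probe set on the array. Of the 75 genes with 2 or more, every measured probe set agreed in sign in 57, and in 5 genes a second one also reached the limit. Those were Vcam1, Rhbdd3, Cryab, Clcn3 and Bola2. In 52 of the 75 the probe set that reached the limit was not the brightest of its gene, and in 38 of these the brightest had a difference under 0.5 in size. Over the 198 genes, the probe set that chose the gene was plain _at by name in 124. It was of the _x_at type in 21, among them Tgm2, Cd151, Cct4, Trib3 and Lce1h. That type is left out by the plain _at setting described at the end.

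**Figure D2:**
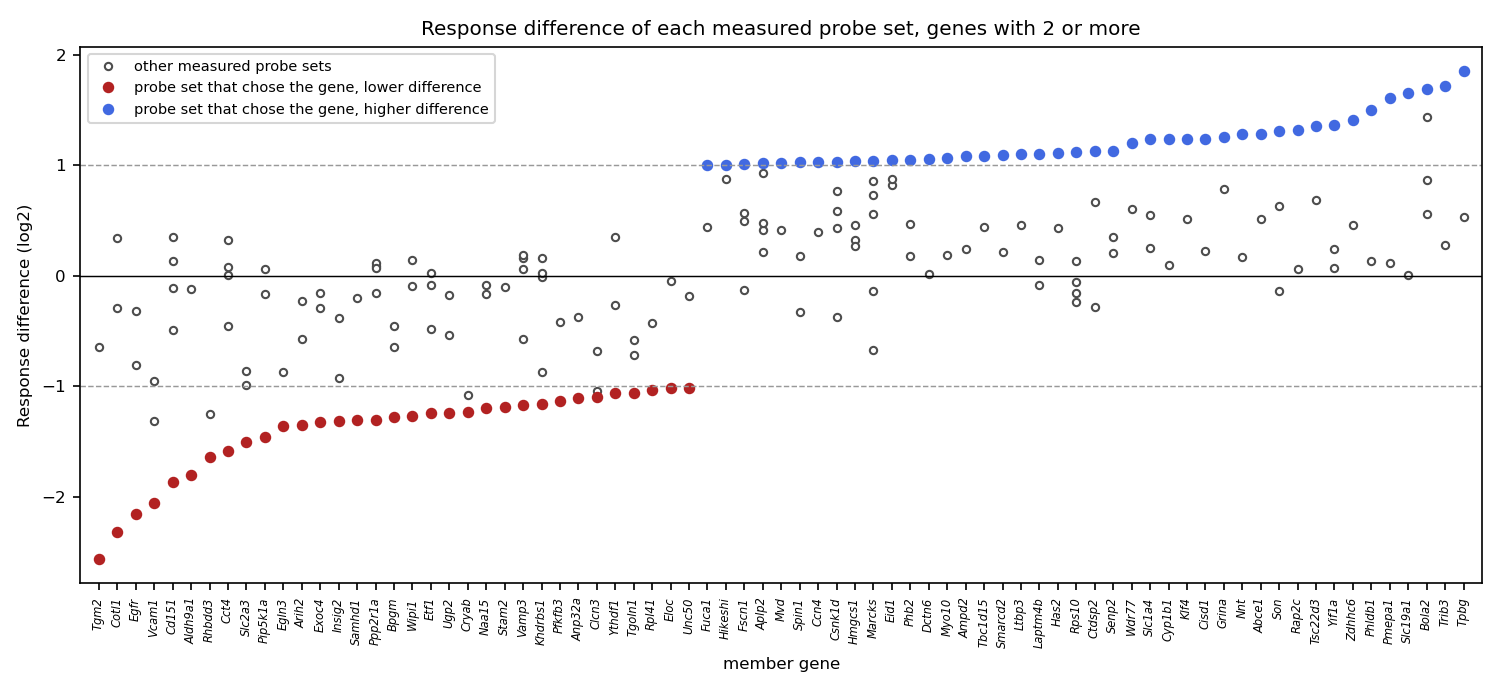
For the 75 genes with 2 or more measured probe sets, filled points give the response difference (log2, vertical axis) of the probe set that chose the gene, red below 0 and blue above, and open points those of the gene's other measured probe sets. Vcam1, Slc2a3, Cryab, Rhbdd3, Clcn3, Eid1, Hikeshi and Bola2 have their open points far from 0, whereas those of Cotl1, Cct4, Cd151 and Slc19a1 lie near 0 or on either side.

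Promoter sequences are shown for 5 hypoxia-regulated members, because HIF recognises a short core there and these genes differ in their response. Trib3, the member of the stress-response group with the largest difference, is added. The windows are from RefSeq on GRCm38.p6, from 250 bases before to 50 bases after the listed start, 5′ to 3′ on the gene's strand. They are Adm at chr7:110627407-110627706 (+), Pgf at chr12:85177264-85177563 (-), Egln3 at chr12:54203825-54204124 (-), Pfkfb3 at chr2:11502041-11502340 (-), Car9 at chr4:43506776-43507075 (+) and Trib3 at chr2:152344011-152344310 (-). Where a gene has several listed starts, the window with the most matches is shown. Capitals mark the core of the hypoxia response element, ACGTG or GCGTG on either strand, in the first 5, and TGATGNAA on either strand, the core of the element bound by ATF4 with C/EBP proteins, in Trib3.
Adm: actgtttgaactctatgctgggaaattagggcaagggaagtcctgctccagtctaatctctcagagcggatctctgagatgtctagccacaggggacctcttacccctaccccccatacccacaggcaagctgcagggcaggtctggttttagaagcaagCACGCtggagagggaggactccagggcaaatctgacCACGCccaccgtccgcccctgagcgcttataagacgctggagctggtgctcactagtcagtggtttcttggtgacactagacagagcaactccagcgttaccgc
Pgf: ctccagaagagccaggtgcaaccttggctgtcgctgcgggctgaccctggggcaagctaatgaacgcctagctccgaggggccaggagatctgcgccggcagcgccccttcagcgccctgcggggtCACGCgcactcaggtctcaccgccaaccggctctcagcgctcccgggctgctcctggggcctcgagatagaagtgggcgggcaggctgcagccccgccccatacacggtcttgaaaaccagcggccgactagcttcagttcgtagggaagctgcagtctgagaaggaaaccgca
Egln3: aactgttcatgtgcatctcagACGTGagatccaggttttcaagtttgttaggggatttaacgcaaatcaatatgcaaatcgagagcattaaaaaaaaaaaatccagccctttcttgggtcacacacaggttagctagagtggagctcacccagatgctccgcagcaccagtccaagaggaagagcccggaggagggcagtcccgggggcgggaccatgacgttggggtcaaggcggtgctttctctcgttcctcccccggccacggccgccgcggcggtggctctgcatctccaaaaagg
Pfkfb3: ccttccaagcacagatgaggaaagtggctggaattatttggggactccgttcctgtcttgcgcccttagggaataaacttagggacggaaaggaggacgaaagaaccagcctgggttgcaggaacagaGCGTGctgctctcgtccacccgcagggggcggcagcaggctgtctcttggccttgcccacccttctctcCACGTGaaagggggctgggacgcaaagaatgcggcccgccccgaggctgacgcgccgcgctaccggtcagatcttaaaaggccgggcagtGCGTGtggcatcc
Car9: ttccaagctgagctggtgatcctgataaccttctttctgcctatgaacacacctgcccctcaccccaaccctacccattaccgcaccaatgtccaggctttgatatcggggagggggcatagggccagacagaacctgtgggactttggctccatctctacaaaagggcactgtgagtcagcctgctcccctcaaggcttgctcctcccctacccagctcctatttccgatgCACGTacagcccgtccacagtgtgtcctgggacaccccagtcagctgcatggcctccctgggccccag
Trib3: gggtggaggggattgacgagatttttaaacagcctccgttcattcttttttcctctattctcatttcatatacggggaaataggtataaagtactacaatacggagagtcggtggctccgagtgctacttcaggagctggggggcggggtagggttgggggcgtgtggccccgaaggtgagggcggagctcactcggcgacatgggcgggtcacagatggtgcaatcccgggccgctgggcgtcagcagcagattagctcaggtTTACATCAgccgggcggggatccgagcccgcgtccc

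The hypoxia response core was no more frequent in the promoters of the members than in those of the measured genes. Of the 157 members with a listed promoter, 112 held it, or 71.3% (Wilson 95% interval, 63.8 to 77.8, for counting alone). The share was 72.2% of 3826 measured genes and 46.7% of all 27025 genes with a listed promoter. It was 68.7% for the negative and 73.3% for the positive members. Among 86 genes that rose in both genotypes, by their brightest measured probe set, 61 of the 70 with a listed promoter held it, or 87.1%. Of the 7 members on the HIF target lists with a listed promoter, 6 held it and Car12 did not. In Pfkfb3 a pair of overlapping matches forms CACGTG, which is also the E-box bound by MYC and other factors. The ATF4 element was found in 6 of 157 members, 3.82%, against 2.54% of the measured genes. A match is a string of letters and not a shown binding site.

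Of 26 genes of glycolysis and glucose uptake, 20 were measured, and by their brightest measured probe set 2 had a difference of -1 or lower and none of 1 or higher. Their median difference was 0.12, against 0.03 for all measured genes. Of 41 other HIF targets 34 were measured, 3 at -1 or lower and 2 at 1 or higher, with 22 below 0, 12 above it and a median of -0.25. Over all 4656 measured genes 2189 were below 0 and 2467 above. By the same brightest probe sets, 1.5% of all measured genes were at -1 or lower and 1.78% at 1 or higher. These lists and those below were chosen with earlier results of these data known, so their counts are a description only.

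Pgf, placental growth factor, a ligand of the VEGF receptor Flt1, had the most negative difference of all members. Its signals were 21.1 in wild-type normoxia, 1368 in wild-type hypoxia, 7.2 in tri-CH1 normoxia and 39.3 in tri-CH1 hypoxia. Only the wild-type hypoxia array was above 200, a rise of at least 6.84-fold, and the difference was -2.77 with the floor and -3.57 without it. Adm, the vasodilator peptide adrenomedullin, went from 81.4 to 2182 in wild-type cells, and from 865 to 3287 in tri-CH1. It rose in both genotypes, at least 10.9-fold and 3.80-fold, and its hypoxic level was the higher of the pair in tri-CH1. Its smaller rise in tri-CH1, a difference of -1.52 as a bound, therefore lies in the normoxic level, which was at least 4.32-fold higher there.

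Slc2a3, the glucose transporter GLUT3, went from 137 to 4349 in wild-type cells, and from 241 to 1848 in tri-CH1, with a difference of -1.51. Its other measured probe sets gave -0.99 and -0.86, so all 3 place the smaller rise in tri-CH1. Pfkfb3, which makes the activator of phosphofructokinase, went from 131 to 1730 and from 88.8 to 786. Its difference of -1.14 became -0.58 without the floor, and another measured probe set gave -0.42.

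Egln3, the prolyl hydroxylase PHD3, shows how the floor alone can reach the limit. The member probe set went from 31.1 to 1022 in wild-type cells, and from 12.2 to 398 in tri-CH1, a difference of -1.36 with the floor and -0.01 without it. Its brighter probe set went from 170 to 3620 and from 140 to 1981, with a difference of -0.87. Both hypoxic signals of Egln3 were lower in tri-CH1, and so were its normoxic ones.

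Angptl4, an inhibitor of lipoprotein lipase, went from 455 to 1173 in wild type and was at 302 and 304 in tri-CH1, a difference of -1.36 with no signal under 200. Insig2, which retains the sterol sensor SCAP in the endoplasmic reticulum, had 3 measured probe sets that gave -1.31, -0.38 and -0.93. The last and brightest of these went from 690 to 2010 in wild-type cells, and from 554 to 849 in tri-CH1. Bpgm, which makes 2,3-bisphosphoglycerate from a glycolytic intermediate, went from 528 to 1512 and from 836 to 982. Its probe sets gave -1.28, -0.64 and -0.46. Ugp2, which makes the UDP-glucose used for glycogen, went from 627 to 1931 and from 1302 to 1699, with -1.24 and, on other probe sets, -0.54 and -0.18. In Ugp2 the tri-CH1 normoxia signal was the higher of the normoxic pair on all 3 measured probe sets. In Bpgm it was higher on the member probe set only, and lower on the others, at 238 against 353 and at 174 against 249.

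Car9 and Car12, membrane carbonic anhydrases that handle acid outside the cell, and Ndrg2, of the family of the hypoxia-induced Ndrg1, were the positive members. Car9 went from 34.0 to 197 in wild-type cells, and from 321 to 933 in tri-CH1, and Car12 from 64.5 to 259 and from 164 to 581. Their differences of 1.54 and 1.17 turned to -1.0 and -0.18 without the floor, since the wild-type normoxia signals were far under 200. Ndrg2 went from 49.8 to 447 and from 80.3 to 1124, with 1.33, and 0.64 without the floor. All 3 genes had their highest signal in tri-CH1 hypoxia.

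**Figure D3:**
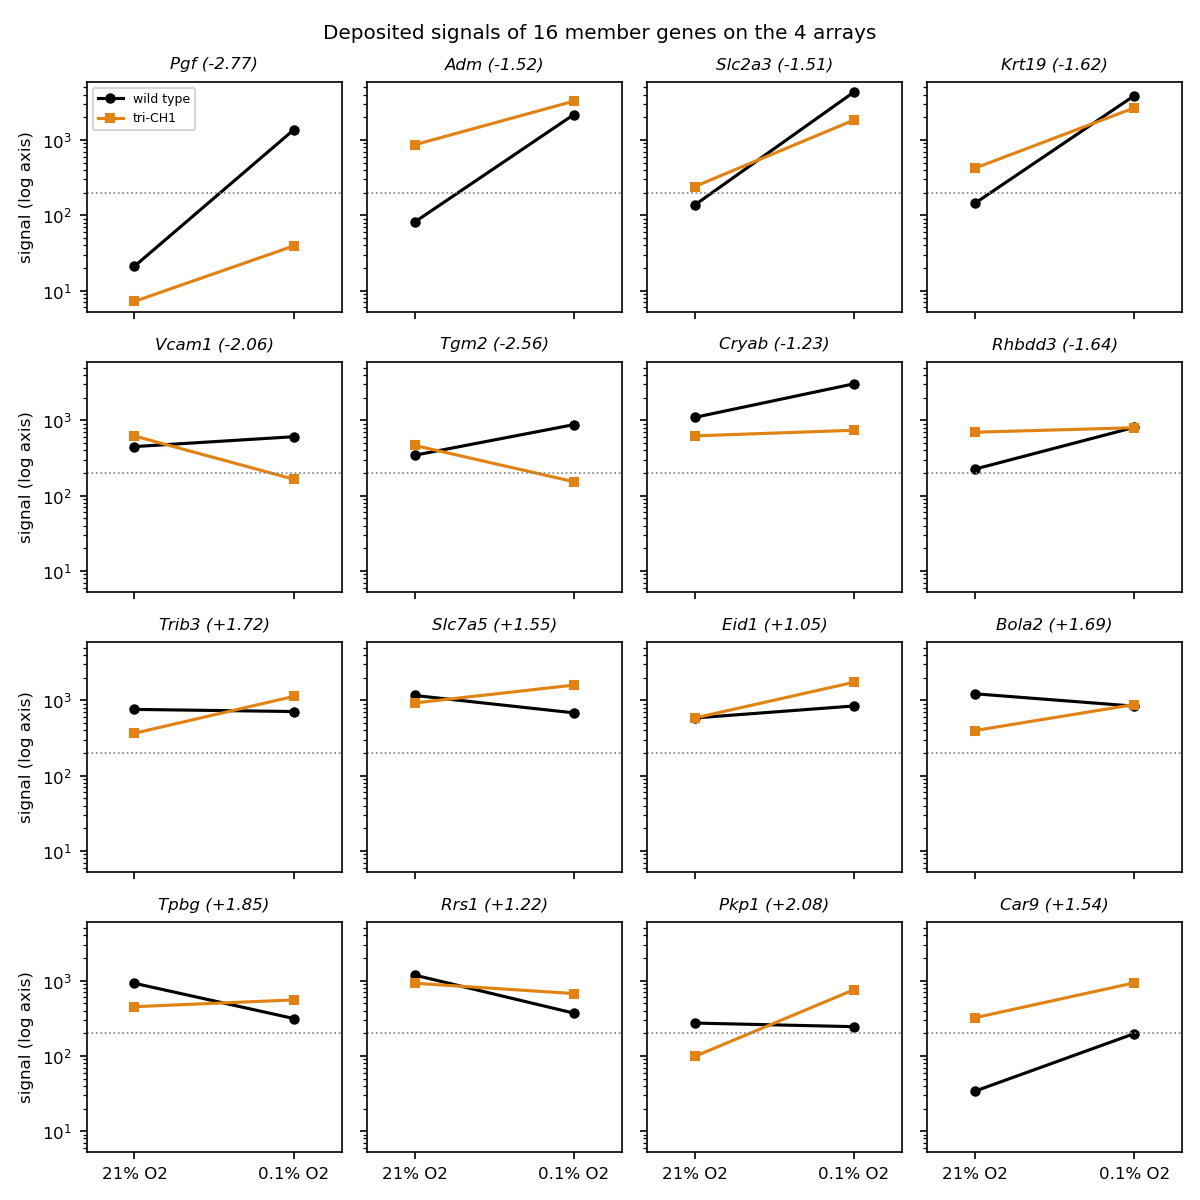
Signals as deposited (log axis) of 16 members at 21% and 0.1% oxygen, black circles for wild type and orange squares for tri-CH1, 1 array per point; the dotted line is the floor of 200 and the number beside each name is the response difference. Pgf shows 3 signals under the floor, Adm and Krt19 start higher in tri-CH1, Vcam1 and Tgm2 run in opposite directions, and the lines of Trib3, Slc7a5, Pkp1 and Tpbg cross.

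Receptors, adhesion molecules and matrix proteins were the largest function group, with 27 members, 10 negative and 17 positive. Vcam1, an adhesion molecule for leukocyte integrins and an NF-kB target, had the best-supported negative difference. The member probe set stood at 447 and 604 in wild-type cells, and at 618 and 165 in tri-CH1, where it fell at least 3.09-fold. The brightest of its probe sets, by mean signal, went from 634 to 724 and from 698 to 320, and the third from 553 to 752 and from 448 to 315. The 3 differences were -2.06, -1.31 and -0.95, with higher signals in hypoxia than normoxia in wild type and lower ones in tri-CH1 on each.

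Tgm2, the crosslinking enzyme transglutaminase 2, was the only member to pass 2-fold in opposite directions. It went from 343 to 874 in wild type, a 2.55-fold rise, and from 463 to 153 in tri-CH1, a fall of at least 2.32-fold. A second measured probe set, at 432 and 639 in wild-type cells, and 284 and 269 in tri-CH1, gave -0.64 against the member's -2.56. On that one the tri-CH1 change was -0.08, so the fall in tri-CH1 was seen on the member probe set only, while the rise in wild type was under 2-fold there.

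Egfr, the EGF receptor, went from 186 to 331 in wild-type cells, and from 539 to 160 in tri-CH1 on the member probe set, with -2.16. Its brightest probe set went from 936 to 1185 and from 1453 to 1049, with -0.81, and another gave -0.32. Smoc1, a calcium-binding matrix protein, stood at 370 and 384 in wild type and fell at least 3.20-fold in tri-CH1, from 641 to 195. Cd151, a tetraspanin that pairs with laminin-binding integrins, fell 5.30-fold in tri-CH1, from 2194 to 414, on the member probe set. Its 4 other measured probe sets gave differences from -0.49 to 0.35, with a sign that changed from one to another.

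The positive genes of this group changed in either genotype. Pkp1, a desmosomal plaque protein, had the largest positive difference, at least 2.08, with 273 and 244 in wild-type cells, and 98.5 and 757 in tri-CH1. Pear1, a platelet and endothelial receptor, went from 235 to 94.8 and from 191 to 534, and its difference was at least 1.65. Nrtn, the GDNF-family ligand neurturin, went from 282 to 253 and from 210 to 681, with 1.85. Adipor2, an adiponectin receptor, went from 831 to 1152 and from 352 to 1341, with 1.46. All 4 rose in tri-CH1. In wild type the floored signals of all 4 changed by less than 2-fold, but the unfloored signal of Pear1 dropped there too, and its difference without the floor was 2.80.

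Tpbg, the Wnt-modulating surface protein 5T4, instead fell 2.94-fold in wild type, from 920 to 314, and went from 450 to 553 in tri-CH1. A brighter probe set gave a smaller difference, 0.53 against 1.85. Pmepa1, a feedback inhibitor of TGF-β signalling, went from 1895 to 1341 with a 2.15-fold rise in tri-CH1, from 1109 to 2389, but its second measured probe set gave 0.12 against 1.61. Phldb1, which anchors microtubules at focal adhesions, gave 1.50 and 0.13, and Sorbs3, the adhesion adaptor vinexin, 1.51 on its only probe set, from 437 to 273 in wild-type cells, and from 337 to 600 in tri-CH1. The other positive members, among them the hyaluronan synthase Has2, the TGF-β binding protein Ltbp3 and the matricellular Ccn4, lay between 1.02 and 1.16.

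Both simple-epithelial keratins among the members, Krt19 and Krt8, had negative differences. Krt19 was grouped with the hypoxia-induced genes for its rise in both genotypes, and Krt8 with the cytoskeletal and motor genes, 8 of 17 negative and 9 positive. Krt19 went from 145 to 3881 in wild-type cells, and from 423 to 2676 in tri-CH1, rising at least 19.4-fold and 6.32-fold. Its difference was a bound of -1.62, and both the lower hypoxic and the higher normoxic signal of tri-CH1 entered it. Krt8 stood at 398 and 332 in wild type and fell at least 2.51-fold in tri-CH1, from 502 to 192. Of 10 simple-epithelial markers, 7 were under 200 on every array, Cdh1 at 36.7 or less and Epcam at 20.3 or less. The summed signal of the 10 went from 1230 to 5167 in wild-type cells, and from 1729 to 3757 in tri-CH1, which Krt19 dominates.

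Cotl1, an F-actin binding protein, stood at 221 and 289 in wild type and fell 3.82-fold in tri-CH1, from 976 to 255, a difference of -2.32. Its 2 other measured probe sets gave -0.29 and 0.34. Cct4, a subunit of the actin- and tubulin-folding chaperonin, had -1.58 on a probe set that read 162 to 632, while its 4 brighter ones gave between -0.45 and 0.33. Fez1, a kinesin adaptor, was read by a single probe set and rose 2.57-fold in wild type, from 386 to 993, with 329 and 287 in tri-CH1. Klc4, a kinesin light chain, went from 183 to 383 and from 610 to 365, with -1.68. Its other probe set, under 500 on every array, gave 0.39. On the positive side, Tanc1, a scaffold protein, went from 784 to 411 and from 294 to 452, with 1.55. Fscn1, the actin bundler fascin, gave 1.01, 0.56, 0.49 and -0.13, the last on its brightest probe set. Lce1h, a late cornified envelope protein, rose in tri-CH1 from 117 to 612 and stood at 1157 and 1212 in wild type. Its only probe set is of the _x_at type.

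Cryab, the small heat shock protein αB-crystallin, was among the clearest negative members. It rose 2.79-fold in wild type, from 1091 to 3046, and went from 619 to 736 in tri-CH1. The second measured probe set went from 528 to 1559 and from 416 to 579, so the differences of -1.23 and -1.08 were close. Rhbdd3, a rhomboid-family protein, rose 3.58-fold in wild type, from 224 to 804, and stood at 693 and 796 in tri-CH1, with -1.64 and, on the other probe set, -1.25. Its tri-CH1 signals lay near the wild-type hypoxic level at both oxygen levels. Clcn3, a vesicular chloride-proton exchanger, went from 82.5 to 714 in wild-type cells, and from 44.7 to 347 in tri-CH1 on its brightest probe set. The 3 measured probe sets gave -1.10, -1.04 and -0.68, but both normoxia signals were under 200 on each. Without the floor they gave -1.2, -0.16 and -0.40.

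Ion carriers also held Slc30a3, a zinc transporter, which rose at least 4.09-fold in wild type, from 81.4 to 818, with 541 and 576 in tri-CH1. Its difference of -1.94 is a bound. Slc12a9, of the cation-chloride cotransporter family, fell 2.15-fold in tri-CH1, from 596 to 277, with 329 and 437 in wild type. Slc19a1, the reduced folate carrier, was positive at 1.66, from 541 to 297 and from 464 to 801, but a second measured probe set showed the same change in each genotype, a difference of 0.01.

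Ifi202b, an interferon-inducible DNA-binding protein, rose 5.81-fold in wild type, from 324 to 1885, and was at 18.4 and 10.1 in tri-CH1. Both tri-CH1 signals were under the floor, so the difference of -2.54 describes the wild-type change only. Only 1 other of the 24 interferon-inducible genes listed was measured. Ccl7, a monocyte chemokine, fell in both genotypes, from 1115 to 158 and from 530 to 175. Its difference of 1.07 follows from the normoxic level, 2.10-fold lower in tri-CH1, since both hypoxic signals were under 200.

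All 4 members of the integrated stress response and amino acid transport, a group written after the members were known, were positive, beside 111 of 198 for all members. This response couples amino acid shortage and endoplasmic reticulum stress to the transcription factor ATF4. Trib3, a pseudokinase that ATF4 induces, went from 759 to 712 in wild type with a 3.08-fold rise in tri-CH1, from 366 to 1130. Its brighter probe set went from 1055 to 1302 and from 978 to 1462, a difference of 0.28 against the member's 1.72. Slc7a5, the large neutral amino acid transporter LAT1, went from 1163 to 684 and from 925 to 1597, with 1.55 on its only probe set. Slc1a4, a neutral amino acid carrier, gave 1.24, 0.55 and 0.25.

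Ddit3, the stress factor CHOP, stood at 1449 and 1414 in wild type and went from 1238 to 2421 in tri-CH1, with 1.00. Slc3a2, the partner chain of LAT1, was not a member at 0.79, from 3793 to 2899 and from 3471 to 4591. Of 18 measured genes on the list of integrated and endoplasmic reticulum stress genes, none had a difference of -1 or lower and 2 had 1 or higher by the brightest probe set, 13 were above 0, and the median was 0.19. All measured genes had 2467 of 4656 above 0 and 1.78% at 1 or higher. Herpud1, an endoplasmic reticulum stress gene, had -0.62 on its brightest probe set and 0.77 on another, and the chaperone Hspa5 had -0.01 and 0.23.

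The sterol and fatty acid group was positive in 5 of 6 members, beside 111 of 198 for all members. Insig2 and Angptl4, which also act on lipids and were negative, were counted with the hypoxia-induced genes. Hmgcs1, which makes the HMG-CoA that feeds cholesterol synthesis, rose 2.86-fold in tri-CH1 on the member probe set, from 1185 to 3392, and went from 2201 to 3072 in wild type. Its 3 other probe sets gave 0.46, 0.32 and 0.27. Mvd, the mevalonate decarboxylase, rose 2.54-fold in tri-CH1, from 324 to 825, and went from 365 to 458 in wild type, with 1.02 and 0.42. Fasn, the fatty acid synthase, went from 1689 to 993 in wild-type cells, and from 1236 to 1661 in tri-CH1, with 1.19. Of the 15 measured genes on the cholesterol and fatty acid list, 13 were above 0, 2 of them at 1 or higher, and the median was 0.24, beside 2467 of 4656 above 0 and 1.78% at 1 or higher over all measured genes.

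Slc27a3, a fatty acid transport protein, went from 12.3 to 147 and from 141 to 782, and its difference of 1.97 became -1.10 without the floor. The other positive one, the acyl-CoA thioesterase Acot6, had 1.27. The negative one of this group was Ggps1, which makes geranylgeranyl pyrophosphate, with -1.35.

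The 3 members on the immediate early list, Dusp1, Myc and Klf4, were positive. Myc and Klf4 were grouped with transcription, and Dusp1 with early and hormone-responsive signalling, which held 5 negative and 6 positive members. Dusp1, the phosphatase that switches off MAP kinases, stood at 2973 and 3486 in wild type with a 2.38-fold rise in tri-CH1, from 687 to 1635. Myc went from 1465 to 1051 and from 695 to 1022, with 1.04. Both were 2-fold or more lower in tri-CH1 in normoxia, and Dusp1 also in hypoxia. Klf4, a zinc-finger factor of the same early class, went from 357 to 283 and from 465 to 870, with 1.24 and, on a brighter probe set, 0.51. Sgk1, a glucocorticoid-induced kinase of that signalling group, had 1.02. Tsc22d3, a glucocorticoid-induced leucine-zipper protein counted under transcription, had 1.36. Tsc22d3 rose 2.72-fold in tri-CH1, from 265 to 720, with 455 and 482 in wild type, and its second probe set gave 0.68. Of 16 measured genes on the immediate early list, 13 were above 0 and 3 below, with a median of 0.47, where all measured genes had 2467 above 0 and 2189 below.

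Transcription and chromatin genes held 23 members, 11 negative and 12 positive, most of them near the limit. Eid1, an inhibitor of p300 acetyltransferase activity and of differentiation, was the positive member with the closest agreement among 3 probe sets. They went from 585 to 844, from 909 to 1267 and from 776 to 1058 in wild type. In tri-CH1 they rose from 584 to 1743, from 914 to 2254 and from 730 to 1823. The differences were 1.05, 0.82 and 0.87, and the genotypes were near each other in normoxia on all 3. Cnot3, a subunit of the CCR4-NOT deadenylase complex, had 1.63 on its only probe set, from 534 to 308 and from 394 to 705. Rcor2, a corepressor of the LSD1 complex, went from 220 to 419 and from 154 to 967, with at least 1.34. Kat2a, the acetyltransferase GCN5, Jarid2, of the Polycomb complex, and Brd8, of the TIP60 complex, were negative at -1.004, -1.23 and -1.25.

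Genes of ribosome assembly, RNA processing and translation were the third largest group, with 10 negative and 11 positive. The 4 described next fell in wild type and changed by less than 2-fold in tri-CH1. Rrs1, a 60S assembly factor, fell 3.20-fold in wild type, from 1183 to 370, and went from 922 to 672 in tri-CH1, a difference of 1.22. Rcl1, which acts in 18S ribosomal RNA processing, fell at least 3.04-fold, from 608 to 163, and went from 614 to 468, with at least 1.21. Exosc4, a core subunit of the RNA exosome, fell 2.46-fold, from 628 to 256, and went from 427 to 605, with 1.80. Another Exosc4 probe set, under 500 on every array, went from 447 to 342 and from 338 to 200, with -0.37. Wdr77, part of the PRMT5 methylosome, went from 1521 to 431 and from 1271 to 826, with 1.2, and 0.60 on another probe set.

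On the list of ribosome assembly genes, 19 were measured, 3 at 1 or higher and none at -1 or lower, 14 above 0 and 5 below. The same counts over the 4656 measured genes were 1.78% at 1 or higher, 1.5% at -1 or lower, 2467 above 0 and 2189 below. The 3 at 1 or higher were Rrs1, Rcl1 and Wdr77. This list was chosen with earlier results of these data known, so its counts are a description only. The list's median change with hypoxia was -0.72 for wild type and -0.46 for tri-CH1, and its median difference 0.15. Nop2 and Ftsj3, which are not members, had 0.85 and 0.81, while Bop1, another 60S factor, had -0.52. Rps27, a ribosomal protein of the small subunit, fell 2.63-fold in wild type, from 1057 to 402, and stood at 767 and 838 in tri-CH1, with 1.52. Another small-subunit gene, Rps10, had 1.12 on its dimmest measured probe set and, on 4 brighter ones, 0.14, -0.06, -0.16 and -0.24. The very bright Rpl41 of the large subunit had -1.03 on the member probe set and -0.43 on a brighter one. Neat1, the noncoding RNA of paraspeckles, fell at least 2.64-fold in wild type, from 528 to 143, and stood at 1414 and 1464 in tri-CH1.

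**Figure D4:**
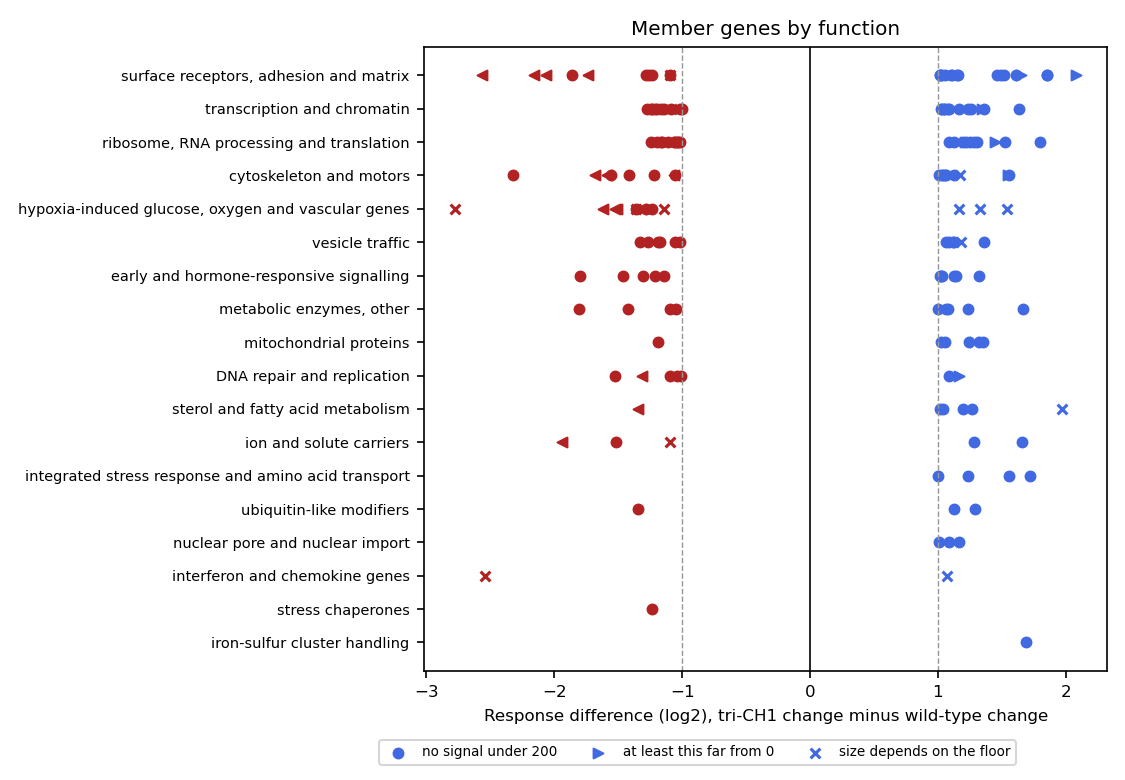
Response differences (log2, horizontal axis) of the members assigned to a function, 1 row per group; red is below 0 and blue above. Circles have no signal under 200, triangles are bounds that point away from 0, and crosses depend on the floor. The integrated stress response, nuclear pore and iron-sulfur rows hold positive members only, but have just 4, 3 and 1 members. The groups were written after the members were known, and 111 of all 198 members are positive. The crosses gather in the hypoxia-induced row.

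Bola2, which with glutaredoxin-3 handles iron-sulfur clusters in the cytosol, was the only positive member with a second measured probe set past the limit. Its 4 measured probe sets gave 1.69, 1.44, 0.86 and 0.56. The member probe set went from 1224 to 839 in wild-type cells, and from 398 to 882 in tri-CH1, and its normoxic signal was 3.08-fold lower in tri-CH1. Mitochondrial proteins were positive in 6 of 7 members, beside 111 of 198 for all members. The mitochondrial ribosomal proteins Mrpl33 and Mrps30, counted outside this group, were negative at -1.17 and -1.11. Nnt, the transhydrogenase of the inner membrane, went from 595 to 239 and from 205 to 174, with 1.28, but its brighter probe set gave 0.17. Timm10, a chaperone of protein import, went from 1345 to 589 and from 938 to 835, with 1.02. Timmdc1, an assembly factor of complex I, was the negative one of the group at -1.19. None of 30 measured oxidative phosphorylation genes reached the limit in either direction, and their median was -0.06.

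The 3 members of the nuclear pore and nuclear import were positive, beside 111 of 198 for all members. The group was written after the members were known. Hikeshi, which imports Hsp70 into the nucleus, rose 2.62-fold in tri-CH1, from 768 to 2009, and went from 845 to 1100 in wild type, with 1.01 and 0.88 on its 2 probe sets. The pore components Nup155 and Nup188 had 1.08 and 1.17. Vesicle traffic held 12 members, 6 on each side, between -1.33 and 1.36. Tgoln1, a cargo protein of the trans-Golgi network, had 3 measured probe sets at -1.06, -0.72 and -0.58. DNA repair and replication held 5 negative members and 2 positive, beside 87 and 111 for all members. Faap24, a Fanconi anaemia core protein of this group, rose 2.62-fold in wild type, from 261 to 684, with 550 and 499 in tri-CH1. None of the 20 measured genes of DNA replication and the cell cycle, 18 of actin and contraction, 11 heat shock genes, 8 p53 targets or 8 housekeeping genes reached the limit by the brightest probe set.

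The remaining genes were spread over kinases, enzymes and proteins of less settled function. Mtor, the growth-controlling kinase, fell 2.08-fold in tri-CH1, from 502 to 241, with 305 and 508 in wild type, a difference of -1.80. Its other probe set stayed under 500 on every array, at 362 and 414 in wild-type cells, and 480 and 484 in tri-CH1, and gave -0.18. By mean signal that one is the brighter. Aldh9a1, an aldehyde dehydrogenase, had -1.80 and, on its second probe set, -0.12. Rpia, the ribose 5-phosphate isomerase of the pentose phosphate pathway, went from 401 to 243 and from 497 to 955, with 1.67. A function was not assigned to 26 members, 10 negative and 16 positive, between -1.64 and 1.44.

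The limit of 1 cuts through a continuous range. The genes just inside it were Kat2a, Rusc2 and Top3b at -1.004, -1.008 and -1.009, and Calml4, Fuca1 and Ddit3 at 1.000, 1.002 and 1.002. Just outside were Ywhaz, Czib and Cnbp at -0.999, -0.998 and -0.995, and Trim27, Pdgfc and Hipk2 at 0.998, 0.996 and 0.996. A difference of 1.5 or more in size was seen in 38 genes and of 2 or more in 7, which were Pgf, Tgm2, Ifi202b, Cotl1, Egfr, Vcam1 and Pkp1. Scaling each array to the same median moved the balance of the directions most, to 56 negative and 203 positive genes, or 78.4% positive against 56.1%, while the median of all genes moved from 0.028 to 0.18.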

How the data were processed

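Total RNA from the 4 cultures was read on Affymetrix mouse arrays, 1 per group. Per the labels, the authors used Affymetrix's statistical algorithm to turn probe readings into 1 intensity for each probe set, with background corrected, and scaled each array to a target signal of 500. The deposited intensities are linear. The scale factors were 3.46 and 6.73 for wild type in normoxia and hypoxia, and 10.3 and 8.70 for tri-CH1, so a low signal on a tri-CH1 array was multiplied more. The sources used here do not name the software.

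The platform annotation named 20380 of 22690 probe sets with 1 gene symbol, 12393 genes in all, after control probe sets were left out, and 6811 were measured. Log2 changes were taken after the floor of 200, and no test was run because each group has 1 array. Lists use each gene's brightest measured probe set. The genes and lists were chosen with earlier results of these data known, and function groups were written after the members were known. Genes were named by rule: the 20 lowest and 20 highest members, members on a list, members with 2 measured probe sets past the limit and those next to the limit. Other members named to fill out a function group were chosen after their values were seen. Motifs were searched in RefSeq promoters, matched by symbol. Alternatives were other floors, minimum signals, normalizations and probe-set rules. The rule was tested on simulated data. Python 3.11.15, numpy 2.4.6, pandas 2.3.3, scipy 1.17.1, matplotlib 3.10.9, R 4.3.3 and limma 3.58.1 (quantile normalization and cyclic loess) were used.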

Additional observations from a re-analysis of the deposited data

Results flagged for a closer look

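Tgm2 was the only member that passed 2-fold in opposite directions in the genotypes. On the member probe set its log2 change was 1.35 in wild-type cells, against -1.21 in tri-CH1 cells. Its second measured probe set gave 0.57 and -0.08, so the opposite 2-fold changes rest on the member probe set alone. With 1 array per group this difference was not tested. Mthfd1, left out for disagreement, changed by -1.94 in wild type and 1.59 in tri-CH1 on a measured probe set. Its other measured probe set gave -0.68 and -1.31.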

How the results depend on the processing

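With 1 array per group no array can be left out, and no paired analysis was possible because each group has a single sample. The 87 negative and 111 positive genes became 43 and 55 with a floor of 400, 24 and 41 with a minimum signal of 1000, and 56 and 203 with median scaling. A minimum of 250 gave 189 negative genes and plain _at probe sets 50. A second probe set at 0.5 or more in size, a rule added after seeing the data, gave 15 and 16. A floor of 100, no floor, quantile normalization, cyclic loess, the brightest probe set, the mean over measured probe sets and the stricter agreement rules stayed within 1.5 times. Of the members, 165 were shared with median scaling, 184 with quantile normalization, 170 with cyclic loess and 95 with a floor of 400. Without a floor, Car9, Car12 and Slc27a3 turned to -1.0, -0.18 and -1.1. Of the 64 genes named by rule no other turned by 0.01 or more, while Cct4 became 0.00 by its brightest probe set. By brightest probe set 7 of the 198 members had the opposite sign, Fscn1 at -0.13 and Rps10 at -0.06 among those described. The 62 genes in which tri-CH1 hypoxia stood apart became 24 with a floor of 400, 14 with a minimum of 1000 and 39 with plain _at probe sets. These settings also had fewer members, 98, 65 and 127 in that order against 198, so the counts alone do not give a change in share. The share of promoters with the hypoxia response core, 71.3%, became 81.2% with a minimum of 1000. The share of all measured genes at that minimum is not given here, so 81.2% is not read as an enrichment. The median difference of glycolysis genes stayed between 0.03 and 0.25, and that of other HIF targets between -0.31 and -0.10. Signals near 500 on arrays whose scaled background was 139 to 393 limit every single value.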
